A study of Homo sapiens with 4 samples.

Results

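The long noncoding RNAs MALAT1, NEAT1, NORAD, MIAT, KCNQ1OT1 and TUG1 were examined as a named group of nuclear and regulatory transcripts, 6 of the 60609 gene identifiers in the deposited table. They were picked by symbol, with earlier results of the same contrast in view, so their levels and fold changes are given as a description and support nothing by themselves. The group had been proposed as abundant RNAs, and the data bore this out unevenly. Of all long noncoding RNA genes, MALAT1 took the most reads in each of the 4 libraries, and NORAD ranked 2 or 3 by reads, whereas MIAT was low and KCNQ1OT1 lay at the limit of detection, with 9, 0, 0 and 1 reads.

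Libraries were made from total RNA of CCRF-CEM/HA-AMPKa2, a version of an established human T cell leukaemia line whose name denotes an HA-tagged AMPK alpha 2 subunit. The step that selects RNA for a library is not reported here, so the levels below are those within the libraries. How far RNAs that are not polyadenylated were captured was not tested. Groups of cells were compared that differ in medium: cells kept for 24 hours in control medium (Ctrl, libraries CTRL_7 and CTRL_8, n = 2) and cells kept for 24 hours in medium lacking glucose (No glucose, libraries ONG_9 and ONG_10, n = 2), and all libraries carry the same tagged subunit. It is 1 engineered line, and the sources used here do not say whether it is a clone or how the subunit is driven. The labels do not describe the paired libraries as independent cultures, so every p-value below measures a spread that may be technical.

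These RNAs are made by RNA polymerase II and are not translated into known proteins. MALAT1 gathers in nuclear speckles, the stores of splicing factors, and the long isoform of NEAT1 is the scaffold on which paraspeckles form. NORAD is a stress-linked RNA that binds Pumilio proteins, which otherwise bind and repress messenger RNAs. MIAT is a nuclear RNA with repeats that bind splicing factors, KCNQ1OT1 is an antisense RNA that silences an imprinted domain in cis, and TUG1 is a regulatory RNA found in both nucleus and cytoplasm.

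Gene reads numbered from 19035535 to 24513840 in CTRL_8, ONG_9 and ONG_10 and 96698709 in CTRL_7, so low RNAs were measured best in CTRL_7. Within pairs, a chi-square test of the reads gave 1.81 per degree of freedom for Ctrl and 5.72 for No glucose, so the No glucose libraries differed more from each other. Most T lineage genes were present as the label states, with a summed level of 87310 to 88540 normalized counts in Ctrl and 102000 to 105600 in No glucose. All 9 markers passed the filter of a mean of at least 1 normalized count, but PTCRA lay near the floor, at 2.68 to 7.02 in the 4 libraries. By limma 2 of the 9 were called higher and 3 lower. PTPRC, the member with the most reads, went from 30120 and 29740 to 48610 and 44960, and its mean rose by more than that of the sum. CD3G (log2 fold change -0.45), TAL1 (-0.42) and CD7 (-0.92) were the ones called lower, CD7 not without CTRL_7, with DESeq2 or with library totals. B cell markers summed to 703.6 and 710 in Ctrl and 438.2 and 457.4 in No glucose, most of it CD79A, with MS4A1 at 1 read or none in each library. Myeloid markers summed to 33.4 to 54.7 across the 4 libraries and adherent cell markers, most of it EPCAM, to 415 to 550, with COL1A2 at 1 read or none in each. Limma called EPCAM lower (log2 fold change -0.33), though it was not called with DESeq2, with library totals, or without CTRL_7, CTRL_8 or ONG_10. COL1A1, near the floor, was called higher (2.16), at 2.06 and 2.68 normalized counts in Ctrl and 7.58 and 25.3 in No glucose. In bulk RNA, fewer cells of a type and less RNA per cell cannot be told apart, and the part of these marker levels in the results below was not tested.

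The genes differ widely in form. On GRCh38, as annotated in GENCODE 29, MALAT1 lies at chr11:65497688-65506516 on the plus strand, and its longest transcript is a single exon of 8708 nt. NEAT1, 52.1 kb upstream on the same strand at chr11:65422774-65445540, has a short transcript of 3441 nt and a long one of 22743 nt. NORAD is 1 exon of 5339 nt at chr20:36045622-36050960 on the minus strand. MIAT spans chr22:26646428-26676475 with a longest transcript of 10143 nt in 5 exons, and TUG1 spans chr22:30969245-30979395 with one of 7469 nt in 3 exons, both on the plus strand. KCNQ1OT1 is a single exon of 91667 nt at chr11:2608328-2699994 on the minus strand, inside KCNQ1 and antisense to it. Base composition was similar in 5 of the longest transcripts, from 40.3% G and C in MALAT1 to 44.1% in NEAT1, and higher in MIAT, at 51.8%.

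MALAT1 and the long NEAT1 isoform share an unusual way of ending. Neither mature 3′ end is made by polyadenylation: RNase P cuts ahead of a tRNA-like RNA, and the end left behind is held by a triple helix of 2 U-rich tracts and an A-rich tract. The letters that form it are shown because they are what the 2 RNAs have in common apart from their neighbourhood. Sequences are from GENCODE 29 transcripts, at chr11:65506027-65506116 and chr11:65445449-65445540 on the plus strand, and capitals mark the 2 U-rich tracts (written with T) and the A-rich tract.
MALAT1: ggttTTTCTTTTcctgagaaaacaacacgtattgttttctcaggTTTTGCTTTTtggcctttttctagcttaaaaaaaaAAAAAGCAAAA
NEAT1 long isoform: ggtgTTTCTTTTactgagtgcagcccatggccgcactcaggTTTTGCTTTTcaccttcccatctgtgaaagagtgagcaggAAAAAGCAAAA
The 3 capitalised stretches are fixed strings that were searched for in both RNAs, so their identity was set in advance. NEAT1's own match in the count that follows was set in the same way. Between the U-rich tracts lie 32 bases in MALAT1 and 29 in NEAT1. Of the last 90 bases of 56425 transcripts, 1 per gene, 1.12% held the first capitalised tract, 0.0833% the second and 0.039% the A-rich one, letter for letter on the transcript strand, and of these transcripts NEAT1's was the one that held all 3. MALAT1 was not counted there because its annotated transcripts run past the cut. The tRNA-like RNA that follows directly, mascRNA at chr11:65506117-65506173, is shown as the product of that cut.
mascRNA: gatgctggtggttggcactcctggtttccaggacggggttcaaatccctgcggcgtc
Its own entry in the table had 0 reads in all 4 libraries, and the annotated span of MALAT1 includes it, so any reads over it may stand under MALAT1.

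NORAD carries the motif that Pumilio proteins bind, TGTANATA, 15 times on its transcript strand, 10 of them as TGTATATA, 4 as TGTAAATA and 1 as TGTACATA. That is 2.81 motifs per kb. Among 3821 transcripts of tested genes at least as long as NORAD, read over their last 5339 bases, the median was 1 motif, 53% held any, and 4 (0.105%) held 15 or more: HCG11, LNPEP and OVCH1-AS1 with 16 each and NORAD. The other RNAs of the group held far fewer over their full longest transcripts, with 9 in KCNQ1OT1, 6 in NEAT1, 2 in TUG1 and none in MALAT1 or MIAT. In 3 places NORAD's motifs stand in pairs that start 9 bases apart, and these are printed because they show the repeated layout. They lie on the minus strand at chr20:36049495-36049527, chr20:36048298-36048330 and chr20:36047662-36047694, and capitals mark the motifs.
NORAD pair 1: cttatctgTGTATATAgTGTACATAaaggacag
NORAD pair 2: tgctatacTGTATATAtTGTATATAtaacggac
NORAD pair 3: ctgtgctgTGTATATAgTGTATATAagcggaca
A motif match is a description of these letters and was not tested as a site of binding in these cells.

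MALAT1 showed the largest change of the 6. It stood at 96345 and 97828 normalized counts (reads divided by a size factor for the library) in CTRL_7 and CTRL_8, and at 230898 and 211599 in ONG_9 and ONG_10. Both No glucose libraries were far above both controls, a mean of 221250 ± 13646 against 97086 ± 1048 (SD, n = 2). The log2 fold change, on log2(normalized count + 1) as throughout, was 1.19 ± 0.05 (SE), or 2.28-fold, with limma and Benjamini-Hochberg adjustment giving adjusted p = 3.5e-08, where a gene counts as called at an adjusted p under 0.05. MALAT1 made up 0.290% and 0.298% of all gene reads in Ctrl and 0.800% and 0.751% in No glucose. By reads, with no correction for length, it ranked 7 and 6 among all genes in CTRL_7 and CTRL_8 and 1 in both No glucose libraries. The genes with more reads in both controls were ACTB, ENO1, EEF1A1, HSP90AA1 and ITM2A, joined by GAPDH in CTRL_7.

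NEAT1, the paraspeckle scaffold, was higher by a smaller amount. Its normalized counts were 2271 and 2281 in Ctrl and 2864 and 2768 in No glucose, and the groups did not overlap. The log2 fold change was 0.31 ± 0.06 (SE; Benjamini-Hochberg adjusted p from limma = 0.0016), or 1.24-fold. This call rested on having both controls: limma's adjusted p was 0.0994 without CTRL_7 and 0.0796 without CTRL_8, at log2 fold changes of 0.30 and 0.31. The ratio of MALAT1 to NEAT1 normalized counts was 42.4 and 42.9 in Ctrl and 80.6 and 76.4 in No glucose. The table counts genes, so the short and long NEAT1 isoforms, of which only the long one builds paraspeckles, cannot be told apart.

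NORAD, the Pumilio-binding RNA, had 16414 and 16617 normalized counts in Ctrl and 17173 and 16250 in No glucose. The groups overlapped, since ONG_10 lay below both controls and ONG_9 above them. The log2 fold change was 0.02 ± 0.05 (SE; Benjamini-Hochberg adjusted p from limma = 0.835), and its sign depended on the scaling, at -0.03 with TMM factors and 0.23, past the threshold, with library totals. By reads it ranked 2 among long noncoding RNA genes in both Ctrl libraries and 3 in both No glucose libraries, where SNHG14 had more.

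TUG1 had 7260 and 7305 normalized counts in Ctrl and 9079 and 8326 in No glucose. Both No glucose libraries were above both controls, although ONG_9 and ONG_10 lay much further apart than the controls did. The log2 fold change was 0.26 ± 0.06 (SE; Benjamini-Hochberg adjusted p from limma = 0.0040), or 1.19-fold. As with NEAT1, limma's adjusted p missed the threshold without CTRL_7, at 0.173, and without CTRL_8, at 0.146.

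MIAT was a low RNA here, counted from 311 and 83 reads in Ctrl and 119 and 116 in No glucose. In normalized counts these were 106.8 and 111 in Ctrl and 180.4 and 162.8 in No glucose, with no overlap. Its log2 fold change was 0.65 ± 0.14 (SE; Benjamini-Hochberg adjusted p from limma = 0.0028), or 1.57-fold, and limma's adjusted p was 0.0657 without CTRL_7. Of the 5 RNAs with enough reads for a fold change, MIAT came second in size after MALAT1 and had the widest standard error.

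KCNQ1OT1 had 9 reads in CTRL_7, 1 in ONG_10 and none in CTRL_8 or ONG_9. A count of 0 allows up to 3 reads, which is 1.22e-05% of gene reads in CTRL_8 and 1.58e-05% in ONG_9, counting error only. With reads pooled within each group and divided by the summed size factors, the ratio of No glucose to Ctrl was 0.296. Its exact 95% counting interval was 0.00676 to 2.14, so neither a rise nor a fall was detectable at this depth. The ratio of the mean normalized counts was 0.454. The sense gene KCNQ1, a potassium channel, had 0 reads in all 4 libraries, with the counting strand not given. The speckle protein gene DDX39B and the RNase P gene RPP21 also stood at 0 throughout. Whether such a 0 means no expression was not tested.

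**Figure D1:**
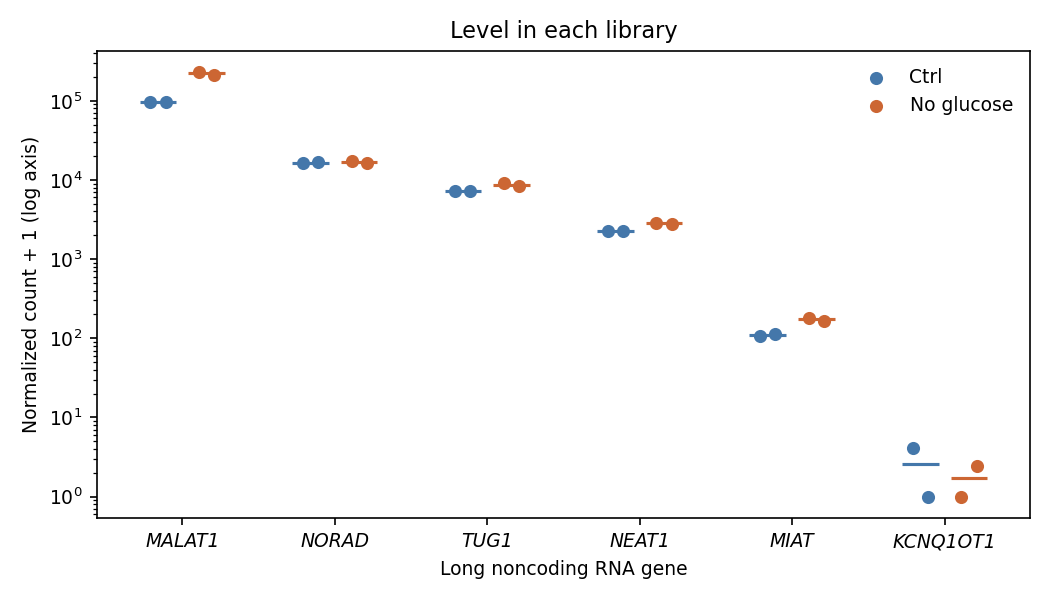
Normalized count + 1 on a log axis for the 6 long noncoding RNAs, with 1 point per library (2 Ctrl, 2 No glucose) and a bar at each group mean. Values are not corrected for length. MALAT1's No glucose points lie above its Ctrl points, NORAD's groups overlap, and KCNQ1OT1 sits at 0 to 3.09 normalized counts.

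By limma with Benjamini-Hochberg adjustment over all 27486 genes tested, 4 of the 6 RNAs (MALAT1, NEAT1, MIAT and TUG1) were called higher and 0 lower, against 35.1% of all tested genes called in either direction, 14.4% higher and 20.7% lower. The groups did not overlap for 4 of the 6, against 66.8% of all tested genes. All 6 passed the filter of a mean of at least 1 normalized count, KCNQ1OT1 barely. The number called higher was 1 without CTRL_7 (MALAT1), 2 without CTRL_8 (MALAT1 and MIAT) and 5 with library totals, which add NORAD. Because the contrast itself chose the RNAs, nothing is read from these counts. The authors' deposited table gives the same 4 RNAs an adjusted p under 0.05, from 4.08e-84 for MALAT1 to 0.0309 for MIAT, gives NORAD 0.871 and gives KCNQ1OT1 none. Its log2 fold changes in the authors' deposited table were 1.19 for MALAT1, 0.66 for MIAT, 0.31 for NEAT1, 0.26 for TUG1 and 0.02 for NORAD.

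The median log2 fold change of the group was 0.28, beside 0.04 for all genes tested, 0.25 for 1055 long noncoding RNA genes with a mean of at least 50 normalized counts and -0.20 for 10656 protein-coding genes at that level. The group's median includes KCNQ1OT1, at -0.38 and far below that level, and without it the middle value was NEAT1's 0.31. Of those 1055, limma called 37.1% higher and 11.9% lower, and of the protein-coding genes 18.9% higher and 47.2% lower. With library totals the coding median was 0.01 and the noncoding one 0.46. MALAT1 stood toward the upper end of its class, with 53 of the 1055 (5.02%) showing a larger log2 fold change. MIAT had 237 (22.5%) above it. NEAT1 with 476 (45.1%) and TUG1 with 522 (49.5%) were near the middle of the class, and NORAD with 700 (66.4%) was in its lower part.

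**Figure D2:**
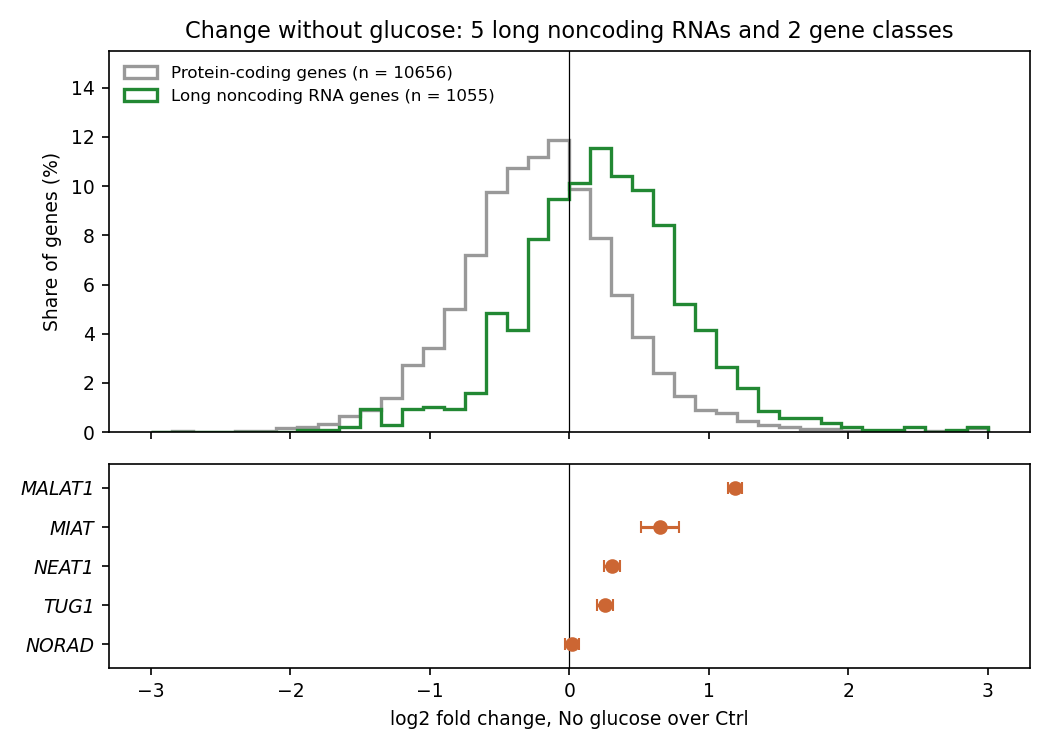
Top, the share of genes (%) by log2 fold change, No glucose over Ctrl, for protein-coding and long noncoding RNA genes with a mean of at least 50 normalized counts, with values beyond 3 placed in the end bins. Bottom, the log2 fold changes of 5 RNAs with their standard errors on the same axis, where MALAT1 at 1.19 lies in the upper tail and NORAD at 0.02 on the zero line.

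Per kb of exon, the scale on which different genes can be set side by side, the order of levels was the same in both groups. In Ctrl, MALAT1 had 10996 ± 119 normalized counts per kb, NORAD 3093 ± 26.8, TUG1 717 ± 3.11, NEAT1 100 ± 0.294 and MIAT 9.21 ± 0.251 (SD, n = 2), with KCNQ1OT1 at 0.0169. In No glucose they were 25059 ± 1546, 3130 ± 122, 857 ± 52.4, 124 ± 2.97 and 14.5 ± 1.06 in the same order, and 0.00765 for KCNQ1OT1. Each neighbouring pair in this order was separated by far more than the spread between libraries. NEAT1's level per kb is averaged over the 22767 bases of its exons, most of which only the long isoform covers, so it is not the level of either isoform. With the length of the longest transcript in place of all exons, TUG1 rose to 975 and 1166 and MIAT to 10.74 and 16.92, with the order unchanged. The 6 RNAs together took 0.369% and 0.379% of gene reads in Ctrl and 0.902% and 0.849% in No glucose. MALAT1 was 78.7% and 78.8% of that in Ctrl and 88.7% and 88.5% in No glucose.

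Among genes that process, degrade or bind these RNAs, more were lower than higher in 6 of 7 lists, or 5 with library totals, where the NORAD partners were the exception along with MIAT's. Each list is described by its counts from limma with Benjamini-Hochberg adjustment and its median, beside 14.4% higher and 20.7% lower over all genes tested and, for coding genes with a mean of at least 50, 18.9% and 47.2%. Values in brackets are log2 fold changes ± SE of each gene's RNA, and no protein was measured in these data. For MALAT1 and NEAT1, the list of RNase P subunits and of factors tied to the triple helix had 0 of 12 tested genes higher and 10 lower, and its median log2 fold change was -0.55. The RNase P subunits POP7 (-1.19 ± 0.09) and POP1 (-1.08 ± 0.09) and ELAC2 (-0.80 ± 0.06), which trims the tRNA-like product, fell furthest among those above a mean of 50. METTL16, a methyltransferase that binds the MALAT1 triple helix, went from 3375 and 3438 to 2731 and 2587 normalized counts (log2 fold change -0.36 ± 0.06, adjusted p = 0.00056 by limma), and was not called without CTRL_7, at 0.0535. The nuclear exosome, the RNA-degrading complex, and its adaptors had 2 of 18 higher (1 without CTRL_7) and 12 lower, with a median of -0.42. Its subunits EXOSC5 (-1.09 ± 0.16), EXOSC4 (-0.94 ± 0.14) and EXOSC2 (-0.83 ± 0.06) fell, and ZFC3H1, a scaffold that brings polyadenylated nuclear RNA to the exosome, rose by 0.91 ± 0.06 on the log2 scale.

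Genes of speckle proteins, among which MALAT1 resides, moved both ways. Of 21 tested, 5 were higher and 11 lower, and the median log2 fold change was -0.24, or -0.03 with library totals. The splicing factor genes SRSF2 (-1.04 ± 0.05), SRSF7 (-1.01 ± 0.05) and SRSF1 (-0.9997 ± 0.05) fell. Genes of the large scaffold proteins on which speckles are built went up: SRRM2 from 6083 and 5983 to 10370 and 10350 normalized counts (log2 fold change 0.78 ± 0.05) and SON from 8901 and 8629 to 13290 and 13090 (0.59 ± 0.05). CLK1, a kinase that phosphorylates SR splicing factors, rose by 1.14 ± 0.06 on the log2 scale.

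For NEAT1, 4 of 35 paraspeckle protein genes were higher and 20 lower, and the median log2 fold change was -0.38. Those higher were 2 without CTRL_7 and 11 with library totals. SFPQ, essential for paraspeckles, went from 28440 and 28830 to 21820 and 20630 normalized counts, a log2 fold change of -0.43 ± 0.05. Its partner NONO was lower by a small amount, -0.14 ± 0.05 (limma, adjusted p = 0.032), a call that was lost without CTRL_7 (0.46), CTRL_8 (0.467) or the filter on low values (0.0633) and a sign that turned with library totals (0.07). PSPC1, of the same family, was at 0.04 ± 0.06, not called, turned below 0 with TMM factors, edgeR or without ONG_9, and reached 0.25 with library totals, where it was called. The RNA-binding protein genes DAZAP1 (-0.96 ± 0.07), HNRNPR (-0.80 ± 0.05) and NUDT21 (-0.72 ± 0.05) fell furthest, and the zinc finger gene ZC3H6 rose by 1.19 ± 0.07.

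For NORAD, the Pumilio gene PUM2 was higher. It went from 7505 and 7287 to 10150 and 9277 normalized counts (log2 fold change 0.39 ± 0.06, limma adjusted p = 0.00023), with no overlap between the groups. Of the 10 tested partners 3 were higher (1 without CTRL_7) and 4 lower, with a median of -0.19 that turned to 0.01 with library totals. ALYREF, an RNA export adaptor, went furthest, at -1.51 ± 0.06, followed by the RNA-binding protein gene RBMX at -0.56 ± 0.05.

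For MIAT, none of 3 tested partners was called: the splicing regulators QKI (-0.07 ± 0.06), SF1 (-0.04 ± 0.05) and CELF3 (-0.05 ± 0.34), although with library totals 2 of the 3 were called higher and without ONG_9 1 was called lower. For KCNQ1OT1 and TUG1, whose known chromatin partners are silencing enzymes, 1 of 13 genes was higher and 8 lower, with a median of -0.45. UHRF1 (-1.42 ± 0.13), which guides DNA methylation, RBBP7 (-0.86 ± 0.05) and DNMT1 (-0.77 ± 0.05) fell, and the Polycomb gene RNF2 was higher by 0.26 ± 0.06, a call lost without CTRL_7 (adjusted p = 0.124, limma) or CTRL_8 (0.203). In the imprinted domain around KCNQ1OT1, 7 of 12 genes were tested, 0 higher and 4 lower, or 2 lower without CTRL_7, with DESeq2 or with library totals. CDKN1C, a cell cycle inhibitor that this RNA silences on one parental copy, had 1 read in all, in ONG_9. SLC22A18, 1 of the 4 called lower, lay near the floor, with 14 and 5 reads in Ctrl and 0 and 1 in No glucose. The domain's edge genes CD81 (-0.79 ± 0.10), NAP1L4 (-0.64 ± 0.06) and OSBPL5 (-0.82 ± 0.18) fell, OSBPL5 losing its call without CTRL_7 (adjusted p = 0.0721, limma), with library totals (0.0594) and with DESeq2 (0.0766).

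**Figure D3:**
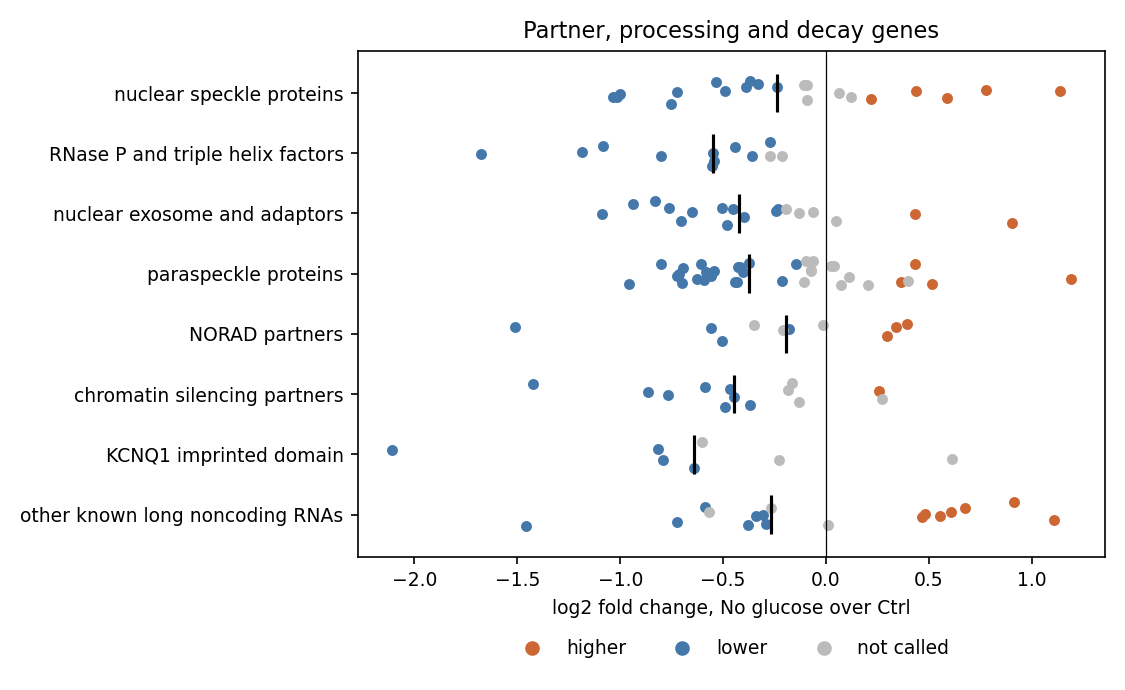
Log2 fold change, No glucose over Ctrl, of each tested gene in 8 lists, with 1 point per gene coloured by limma's call at an adjusted p under 0.05 and a bar at the list median. Points are spread vertically for legibility alone, and the RNase P and KCNQ1 domain lists hold 0 genes called higher.

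Of 17 other well-known long noncoding RNAs tested, 7 were called higher and 7 lower (4 lower without CTRL_7 or CTRL_8, and 8 higher and 4 lower with library totals), beside 37.1% higher and 11.9% lower in the class with a mean of at least 50. Their median log2 fold change was -0.27, the value of TERC, which lay near the floor at 3.03 to 5.35 normalized counts. The next value above it was that of GAS5, at 0.01, so the median says little about the direction of the list. The list was not cut at a mean of 50 as the class was: TERC, MEG3 (-0.57) and CYTOR (1.11) lay below it. DANCR fell from 1494 in both controls to 568.6 and 519.2 normalized counts (-1.46 ± 0.08), LINC00294 changed by -0.72 ± 0.10 and MIR17HG, the host of a microRNA cluster, by -0.59 ± 0.09. FTX rose from 823.7 and 868.1 to 1659 and 1529 (0.91 ± 0.07). OIP5-AS1, at 10152 and 10056 normalized counts in Ctrl, went to 7992 and 7560 in No glucose and fell by 0.38 on the log2 scale, and with library totals the median of the list was -0.08.

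Genes within 250 kb of the 6 loci were more often called lower than higher. Counting each once and leaving the 6 out, 5 of 69 tested neighbours were higher and 21 lower by limma, with a median of -0.23, or -0.02 with library totals, where 6 were higher and 10 lower. Lower calls outnumbered higher ones over all genes tested too (20.7% against 14.4%), and among coding genes with a mean of at least 50 (47.2% against 18.9%). Without CTRL_7 the counts were 3 and 9, and without ONG_9 10 were higher. Around MALAT1, 3 of 24 were higher, NEAT1 and DPF2, a chromatin reader (0.63 ± 0.06), among them, and 9 lower, with EHBP1L1 (-1.08 ± 0.08) and ZNRD2 (-1.05 ± 0.17) the furthest. Around NEAT1, whose window is largely that of MALAT1, 2 of 25 were higher and 9 lower. Around NORAD, 0 of 12 were higher and 2 lower, PHF20 (-0.66 ± 0.06) and AAR2 (-0.34 ± 0.06, adjusted p = 0.091 by limma without CTRL_7, and 0.0638 with library totals at -0.13).

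MIAT's surroundings held 3 of 12 genes higher and 3 lower. MIATNB, a long noncoding gene that overlaps MIAT on the same strand, went from 193 and 215 to 473 and 492 normalized counts, a log2 fold change of 1.24 ± 0.10 (limma, adjusted p = 3.1e-06). Because the 2 genes overlap, reads could be assigned to either, and their values are uncertain to that extent. LINC01422, 182 kb downstream on the same strand, was chosen after its values were seen, and went from 15.8 and 13.4 to 50.03 and 57.5 (1.81 ± 0.27, limma adjusted p = 0.00023). The coding genes SRRD (-0.71 ± 0.08) and ASPHD2 (-0.71 ± 0.13), upstream of MIAT, were lower, ASPHD2 with an adjusted p of 0.0511 by limma without CTRL_7.

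TUG1 is transcribed away from MORC2, a chromatin compaction gene that starts 0.947 kb upstream on the other strand. MORC2, also named after its values were seen, had 1846 and 1814 normalized counts in Ctrl and 1660 and 1501 in No glucose. At -0.21 ± 0.07 (limma, adjusted p = 0.035) it was lower while TUG1 was higher, but its call was lost without CTRL_7, CTRL_8 or ONG_10 (0.315, 0.266 and 0.0591) and with DESeq2 (0.0554), and with library totals its change was close to 0 (adjusted p = 0.983). Of 11 tested neighbours of TUG1 0 were higher and 3 lower, OSBP2 (-0.94 ± 0.12) and LIMK2 (-0.59 ± 0.06) being the others.

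**Figure D4:**
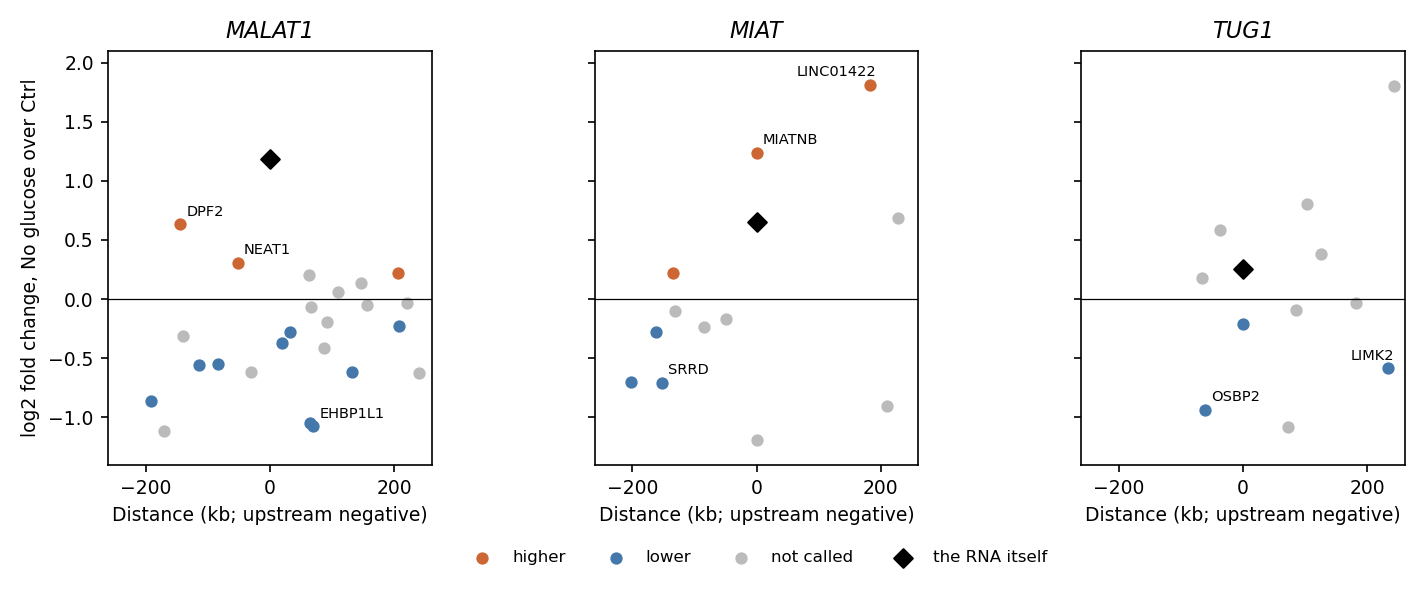
Log2 fold change, No glucose over Ctrl, of tested genes within 250 kb of MALAT1, MIAT and TUG1 against their distance in kb, upstream negative, coloured by limma's call at an adjusted p under 0.05. The black diamond is the RNA itself, with MIATNB and LINC01422 above MIAT's own 0.65 and no called gene above MALAT1's 1.19.

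RefSeq (GRCh38.p14) promoter windows, 250 bases before to 50 after a start, were at hand for 4 of the 6 genes, with 2 starts for MALAT1 and 1 each for NORAD, MIAT and TUG1. CACGTG, the E-box read on both strands, was in the NORAD window, 138 bases before the start, and in the TUG1 window, 77 bases before it, and in 7.26% of all 35116 windows. The stretches are printed in the direction of each gene, from chr20:36051081-36051110 on the minus strand and chr22:30969176-30969205 on the plus strand, with the motif in capitals, as the one motif that 2 of these genes share.
NORAD promoter: gggccctaacccCACGTGaccacaccccat
TUG1 promoter: tcccgcccctgtCACGTGacagcgtgcgcc
TATAAA, read on both strands, was found 30 bases before the second MALAT1 start, and in 11.5% of windows. The stretch around it, at chr11:65499003-65499032 on the plus strand, is printed with the motif in capitals.
MALAT1 second promoter: ttgttctccgtcTATAAAtacgcctcgccc
GAANNTTC, a core of the heat shock element, and TGACGTCA, the cyclic AMP response element, were in none of the 5 windows and in 6.77% and 1.85% of all windows. CCAAT was in the TUG1 window 2 times and in 34.6% of all windows. The shorter ACGTG, in 21.4% of windows, matched in the NORAD and TUG1 windows inside CACGTG. These matches describe letters alone.

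Genes whose pattern across the 4 libraries was closest to each RNA were found by the distance of centred log2 values over 9656 genes with a mean of at least 200. Closest to MALAT1 were the nuclear receptor gene RORA (distance 0.0214), GLIPR1 and ENC1, with log2 fold changes of 1.19, 1.16 and 1.20. For NEAT1 they were ARHGAP19-SLIT1, HCLS1 and IP6K2, for TUG1 the genes TTF1, CCNG1 and ZBTB25, and for MIAT the genes THG1L, ZDBF2 and ZNF711. Closest to NORAD were RBM3, a cold-inducible RNA-binding protein gene, GIGYF2 and EIF4A2, and among 314 long noncoding RNAs C10orf25 and GAS5 were. For KCNQ1OT1 no gene was near, the least distance being 1.16. Over all genes, ranking by Pearson's r over the 4 libraries shared 0 of the 3 genes for each of the 6. Among long noncoding RNAs, C10orf25 was also among the 3 closest to NORAD by r (0.972), and GAS5 was not. These lists describe like sizes of change and depend on the measure.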

How the data were processed

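Total RNA of 2 Ctrl and 2 No glucose libraries was prepared with a stranded kit, per the labels' protocols. The authors used STAR 2.6.0c, RSEM 1.3.0 and DESeq2 1.18.1 with hg38, per the submitters' processing notes; the annotation release and the counting strand are not given in the sources used here. The deposited signal values are normalized counts, 1 per gene and library. The deposited log2 values are the authors' fold changes and standard errors. The deposited score is the authors' test statistic, and the deposited p-values and adjusted p-values belong to that comparison. The table has 2 kinds of columns, CTRL and ONG, and ONG was therefore read as No glucose.

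Dividing by each library's smallest step returned whole reads, within 0.01, for 100% of values, with size factors of 2.91, 0.748, 0.660 and 0.713. As the table holds normalized counts, limma 3.58.1 (trend, R 4.3.3) on log2(normalized count + 1) was the test, which understates changes of low genes, for genes with a mean of at least 1, two-sided, with Benjamini-Hochberg adjustment at 0.05. edgeR 4.0.16 on the recovered reads called 10256 of 27486 genes, limma 9643 and DESeq2 1.42.0 7302. The procedure was run on simulated data in which few genes changed and the size factors were known. That run therefore cannot speak to the choice of scaling. The table had 60868 rows for 60609 identifiers, of which 58457 were found in GENCODE 29, which supplied biotype, coordinates and length. Intervals and floors cover counting error only, since reads without molecular identifiers are not independent molecules.

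The 6 RNAs and the gene lists were chosen with earlier results of these data known. Named genes were the 6 RNAs, SFPQ, NONO, PSPC1, PUM2, METTL16, SRRM2, SON, KCNQ1 and CDKN1C, and per list up to 3 called genes with the largest change in the main direction and 1 in the other (2 and 1 per locus for neighbours) with a mean of at least 50 and groups that did not overlap. Alternatives changed the test, scaling, pseudocount, filter or likeness measure, or left out each library in turn. An item that the rule names is not reported here.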

Additional observations from a re-analysis of the deposited data

How the results depend on the processing

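MALAT1 kept its direction and its side of the threshold under all 12 alternatives, with log2 fold changes from 1.12 to 1.40. NORAD's sign turned with edgeR (-0.0265) and with TMM factors (-0.0269), and library totals put it past the threshold at 0.23 (limma, adjusted p = 0.00107). Leaving out 1 library at a time, where a lone library is assumed to vary like the others, NORAD ranged from -0.0234 (without ONG_9) to 0.0563, NEAT1 from 0.28 to 0.33, MIAT from 0.58 to 0.72, TUG1 from 0.19 to 0.32, the number of the 6 RNAs called higher from 1 to 4, all genes called higher from 2027 to 4172 and lower from 3318 to 6387, and called neighbours from 3 to 10 higher and from 9 to 22 lower. Scaling to library totals shifted the all-gene median to 0.24 from 0.04. Of the calls 61.5% were then higher instead of 40.9% (6104 higher and 3821 lower, in place of 3948 and 5695), and 10 neighbours were lower. DESeq2 called 2436 genes higher. No paired analysis was possible because the columns of the table do not carry the replicate numbers of the labels. The cause of these differences was not tested. Depth limits KCNQ1OT1, which has 10 reads in all, and MIAT. No fold change was refitted for KCNQ1OT1.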
